A study of Rattus norvegicus with 12 samples.

Results

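The secretoglobins described here were represented by 7 of the 41012 non-control probes of an Agilent rat array, hybridised with prostate RNA on 12 dual-colour arrays. The array gene name of 6 probes begins with Scgb (Scgb1d2, Scgb2a1, Scgb2a2, Scgb1a1, Scgb3a1 and Scgb1c1). The other probe carries the older name Psbpc2, prostatic steroid-binding protein C2, and was assigned to Scgb1d4 through its RefSeq accession. The RNA came from male rats aged 10 weeks. In obstructed rats a ring around the proximal urethra partly closed the bladder outlet, and sham rats were operated on without it. Treatment was Eviprostat, a plant-derived medicine used against benign prostatic hyperplasia, given as 18 mg/kg doses to a daily total of 36 mg/kg, or its vehicle, 0.1% Tween 80. The 4 groups, sham/vehicle, sham/Eviprostat, obstruction/vehicle and obstruction/Eviprostat, had 3 arrays each. Obstructed rats were dosed for 5 days from the day after surgery, sham rats starting 5 days after theirs, and the prostate was taken 2 h after the last dose. Operation and time since surgery were therefore not separated. Prostate tissue of the 5 or 6 animals of a group was pooled, so the p-values below cover the spread from array to array only, and leave out that between animals.

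Secretoglobins are small secreted proteins that form disulfide-linked dimers with a hydrophobic pocket. In the rat ventral prostate, prostatein (also called prostatic steroid-binding protein) is a major androgen-dependent secretory product in which a C1 or C2 chain pairs with a C3 chain. Scgb1d2, Scgb1d4 and Scgb2a1 carry the RefSeq synonyms Psbpc1, Psbpc2 and Psbpc3, for the C1, C2 and C3 chains. The probes with these 3 names are called subunit probes by name only, since which transcript the Scgb2a1 probe detects was not settled. Scgb1a1 is uteroglobin, the secretory protein of airway club cells, and Scgb3a1 is a secretoglobin best known from airway epithelium.

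The probes decide which paralog each measurement refers to, so those of the 3 subunit genes, of Scgb2a2 and of Scgb1a1 are shown. Scgb1d4 and Scgb2a2 are shown by the first 30 of their 60 bases. All letters are lower case, since no part of a probe is singled out. Positions are on rat build rn3, as the array design gives them. Whether each lies in a coding exon or an untranslated region was not determined here.
Scgb1d2, chr1:212174970-212175029, minus strand: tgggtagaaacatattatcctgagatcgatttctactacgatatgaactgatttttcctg
Scgb1d4, chr1:212282985-212283044, plus strand: ttggttctcagaaattaactgactttcact
Scgb2a1, chr1:212322499-212322558, plus strand: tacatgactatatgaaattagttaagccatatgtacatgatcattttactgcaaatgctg
Scgb2a2, chr1:212459377-212459436, plus strand: gcctgaatttgaacaaaacaatatatacct
Scgb1a1, chr1:211918166-211918225, minus strand: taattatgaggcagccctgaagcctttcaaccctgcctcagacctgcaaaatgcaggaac

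The longest run shared by the Scgb1d2 and Scgb1d4 probes was 6 bases, and the Scgb2a1 and Scgb2a2 probes shared 5. No other probe of the array shared a run of 20 bases with any of the 7 probes, on either strand. The Scgb1d2 and Scgb1d4 probes lie 108015 bases apart on chromosome 1, and the Scgb1d2 and Scgb2a1 probes 147529 bases. Scgb1c1 lies on the same chromosome, at chr1:201154224-201154283, and Scgb3a1 at chr10:35127424-35127483.

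The promoters of Scgb1d2 and Scgb1d4 are shown because these genes moved together across the groups. Each is the 250 bases before the RefSeq start in build GRCr8, read in the direction of transcription, with matches to TATAAA (the TATA box core) and TGTTTA (a forkhead core) on either strand in capitals.
Scgb1d2, chr1:215656711-215656960, minus strand: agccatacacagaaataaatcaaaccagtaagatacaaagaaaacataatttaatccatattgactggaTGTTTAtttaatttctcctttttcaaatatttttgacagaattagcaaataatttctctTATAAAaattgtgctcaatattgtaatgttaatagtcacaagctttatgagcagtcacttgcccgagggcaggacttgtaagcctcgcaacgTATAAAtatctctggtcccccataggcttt
Scgb1d4, chr1:215755113-215755362, plus strand: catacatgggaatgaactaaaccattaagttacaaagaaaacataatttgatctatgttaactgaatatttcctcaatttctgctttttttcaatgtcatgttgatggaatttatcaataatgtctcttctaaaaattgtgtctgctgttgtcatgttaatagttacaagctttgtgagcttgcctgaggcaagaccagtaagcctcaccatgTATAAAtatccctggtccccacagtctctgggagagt

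In a global alignment the 2 windows were identical at 72.4% of the alignment columns, with a longest shared run of 19 bases. The Scgb1d2 and Scgb2a1 windows were identical at 45.1%. TATAAA began 30 and 122 bases before the Scgb1d2 start and 37 bases before the Scgb1d4 start, and was not matched in the Scgb2a1 window. Over all 33469 promoter windows of this length, 12.9% held TATAAA and 12.1% held TGTTTA on either strand. AGAACA, a half-site core of steroid receptor elements, also searched on both strands, was present in 17.5% of all windows. It was not matched in the Scgb1d2 or Scgb1d4 window and was matched once, as TGTTCT, in the Scgb2a1 window. That window, placed by the current RefSeq gene, begins with bases of a C3 gene probe (V01257) that lies 3514 bases from the Scgb2a2 probe and 133364 bases from the Scgb2a1 probe on rn3, so it belongs to the locus of the Scgb2a2 probe. The motifs do not overlap one another in these windows. The RefSeq gene model of Scgb1d2 reaches 1141 bases beyond the window shown, so this window lies inside the model.

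In every hybridisation Cy5 marked the RNA of the group and Cy3 sham/vehicle RNA, and values are log2 ratios of Cy5 over Cy3 after normalization within the array. On sham/vehicle arrays both channels carried sham/vehicle RNA. The 12 arrays lay on 3 slides with 1 array of each group per slide, and Cy5 was well above background at 70.9% to 88.4% of the spots. Slide 1, scanned on another day than slides 2 and 3, had dimmer Cy5 spots for the 3 subunit probes in every group. Each group kept 1 slide position throughout, which means that position and group cannot be told apart. Of the 17 measured genes of a prostate secretory and androgen-regulated list, 15 to 17 were above background on each array. All 7 secretoglobin probes passed the filter on dim probes.

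The 3 prostatein subunit probes were high in the sham/Eviprostat and obstruction/vehicle groups and low in the sham/vehicle and obstruction/Eviprostat groups. The mean log2 ratio of Scgb1d2 was 0.13 ± 0.02 (SD, n = 3) in sham/vehicle, 4.34 ± 0.06 (SD, n = 3) in sham/Eviprostat, 4.47 ± 0.18 (SD, n = 3) in obstruction/vehicle and -0.35 ± 0.08 (SD, n = 3) in obstruction/Eviprostat. The other 4 secretoglobin probes had group means between -0.24 and 0.58. None of the spots of the 7 probes was saturated or marked as an outlier.

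**Figure D1:**
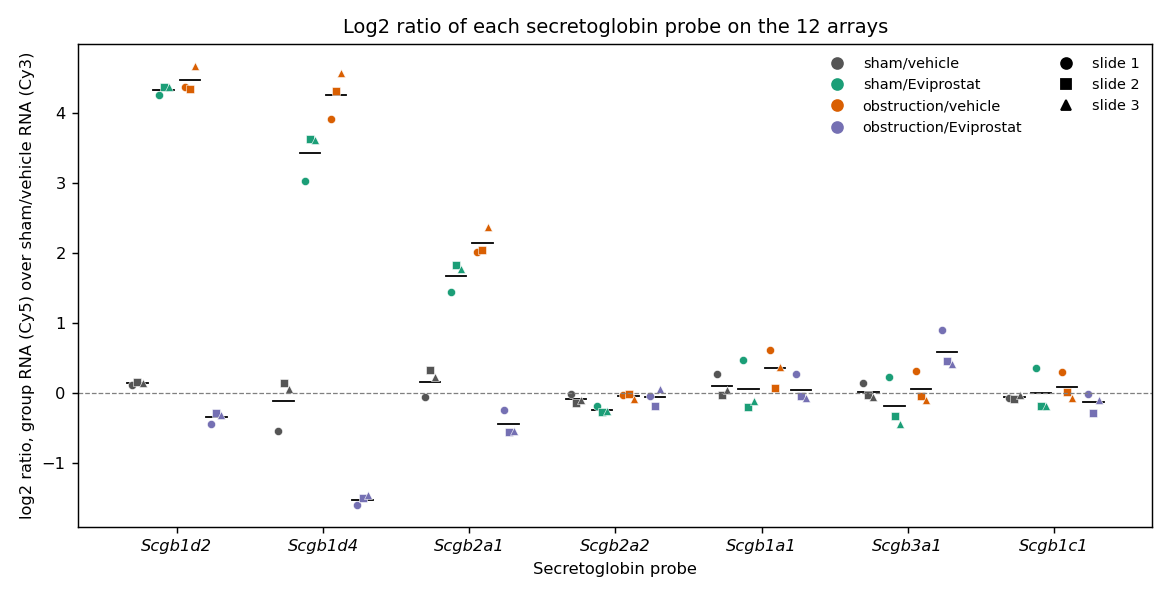
Normalized log2 ratio of group RNA (Cy5) over sham/vehicle RNA (Cy3) for each of the 7 secretoglobin probes; each point is 1 array, colour gives the group, shape the slide, and the black bar is the group mean. The 3 subunit probes Scgb1d2, Scgb1d4 and Scgb2a1 are high in sham/Eviprostat and obstruction/vehicle, with means of 1.68 to 4.47, and the other 4 probes have group means between -0.24 and 0.58, the highest being Scgb3a1 in obstruction/Eviprostat.

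Scgb1d2, the C1 subunit gene, had log2 ratios of 0.11, 0.16 and 0.14 on the sham/vehicle arrays of slides 1, 2 and 3, and 4.27, 4.37 and 4.37 on the sham/Eviprostat arrays. The obstruction/vehicle arrays gave 4.38, 4.35 and 4.68, and the obstruction/Eviprostat arrays -0.45, -0.30 and -0.32. The values of the 2 high groups overlapped each other, while the obstruction/Eviprostat arrays all lay below the sham/vehicle arrays.

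Scgb1d4, the C2 subunit gene, had log2 ratios of -0.54, 0.13 and 0.05 in sham/vehicle and 3.04, 3.62 and 3.62 in sham/Eviprostat. Its obstruction/vehicle arrays gave 3.91, 4.31 and 4.57, and its obstruction/Eviprostat arrays -1.61, -1.51 and -1.47. No pair of groups overlapped for this gene, and obstruction/Eviprostat was the lowest group. The difference between the 2 high groups was not tested.

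The probe named Scgb2a1 had a smaller range. Its log2 ratios were -0.07, 0.32 and 0.23 in sham/vehicle and 1.44, 1.83 and 1.76 in sham/Eviprostat. They were 2.01, 2.05 and 2.36 in obstruction/vehicle and -0.25, -0.56 and -0.56 in obstruction/Eviprostat. The order of the groups was that of Scgb1d4, and no pair of groups overlapped.

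The Cy3 channel, which carried sham/vehicle RNA on every array, gave mean spot intensities of 2317 to 2808 for Scgb1d2, 4687 to 6756 for Scgb1d4 and 1634 to 2307 for Scgb2a1. Cy5 intensities ran from 1364 to 180505 for Scgb1d2, from 1318 to 334727 for Scgb1d4 and from 1209 to 25003 for Scgb2a1. After normalization of each channel across arrays, the Cy3 level of these probes spanned at most 0.49 on the log2 scale over the 12 arrays. The Cy5 level spanned 5.01 for Scgb1d2, 6.04 for Scgb1d4 and 2.69 for Scgb2a1, so the differences between groups lay in the Cy5 channel.

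**Figure D2:**
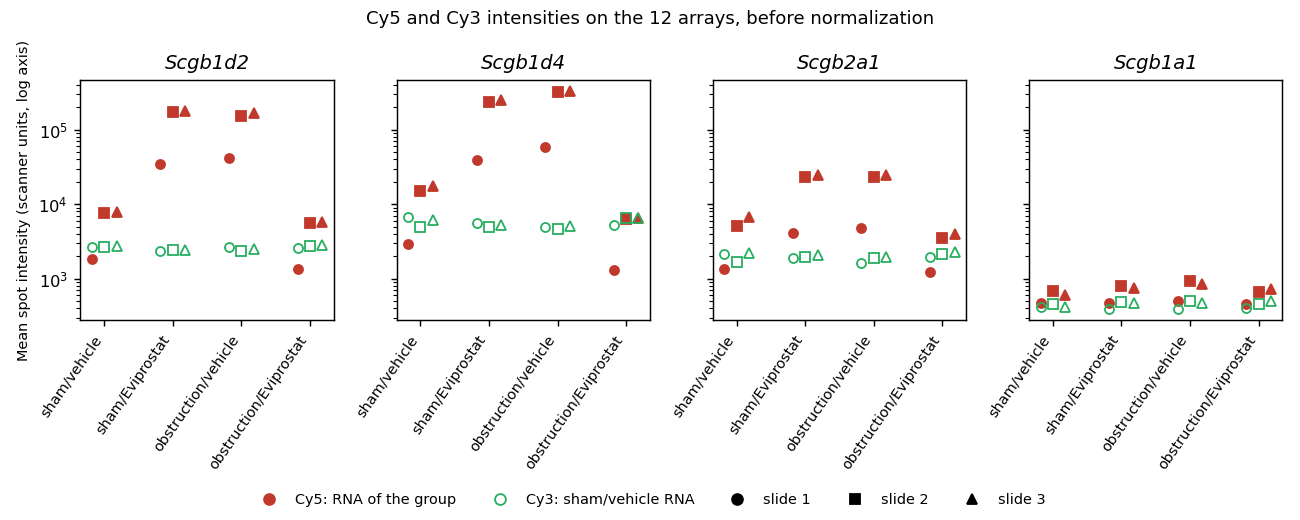
Mean spot intensity in scanner units on a log axis, before normalization, for the 3 subunit probes and Scgb1a1 on each array; filled red points are Cy5 (group RNA), open green points are Cy3 (sham/vehicle RNA), and shape gives the slide. Cy3 of Scgb1d2 stays between 2317 and 2808, while its Cy5 reaches 180505 in the high groups, and slide 1 is dimmer in Cy5 for the subunit probes.

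Among all array probes, the Cy5 level of Scgb1d4 lay at or above 96.9% of probes in sham/vehicle, 99.7% in sham/Eviprostat, 99.9% in obstruction/vehicle and 93.0% in obstruction/Eviprostat. Scgb1d2 stood at or above 94.4% of probes in sham/vehicle and 99.7% in obstruction/vehicle. Scgb2a1 rose from 92.9% of probes to 97.5% between the same groups. Even in the low groups each of these probes stood at or above 90.4% of probes, while Scgb2a2 stood at 11.6% to 17.2% in the 4 groups. Probes differ in brightness for the same amount of RNA, so these ranks do not order the genes by transcript number.

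Obstruction without drug was compared with the sham operation without drug. The 3 subunit probes rose and none of the 7 fell, where 11.6% of 36105 kept probes were called in this comparison and 7.15% were called higher. Scgb1d2 was higher by 4.33 ± 0.10 (log2, SE), a 20.2-fold difference, with a limma adjusted p of 1.51e-10. Scgb1d4 was higher by 4.38 ± 0.21, or 20.9-fold, with a limma adjusted p of 1.05e-07. Scgb2a1 was higher by 1.98 ± 0.15, or 3.95-fold, with a limma adjusted p of 3.68e-06. By size of difference Scgb1d4 ranked 17 and Scgb1d2 ranked 20 among the kept probes. Within slides 1, 2 and 3 the difference was 4.26, 4.20 and 4.54 for Scgb1d2. The median difference over the 7 probes was 0.26, the value of the uncalled Scgb1a1 probe, beside -0.01 over all kept probes. In pooled bulk RNA, a change in the number of cells of a type and a change in RNA per cell cannot be told apart.

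Eviprostat was then compared with vehicle in sham-operated rats. Again the 3 subunit probes rose and no other of the 7 passed the test, where 1.53% of kept probes were called and 0.87% were called higher. Scgb1d2 was 18.4-fold higher (4.20 ± 0.10, log2, SE; limma adjusted p 4.14e-10). Scgb1d4 was 11.7-fold higher (3.54 ± 0.21; limma adjusted p 3.95e-06). Scgb2a1 was 2.86-fold higher (1.52 ± 0.15; limma adjusted p 0.000208). Scgb1d2 and Scgb1d4 ranked 8 and 10 among the kept probes by size of difference. The slides gave 4.15, 4.22 and 4.24 for Scgb1d2 and 3.58, 3.49 and 3.56 for Scgb1d4, a narrow range for a difference of this size. With arrays centred on the median in place of loess, the Scgb2a1 difference was 1.55 with a limma adjusted p of 0.304, no longer past the threshold.

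In obstructed rats Eviprostat went with lower subunit signal. All 3 subunit probes fell relative to obstruction/vehicle, where 9.79% of kept probes were called and 5.89% were called lower. Scgb1d4 fell by 5.79 ± 0.21 on the log2 scale, which is 55.5-fold lower, with a limma adjusted p of 1.74e-08 and rank 6 by size among the kept probes. Scgb1d2 fell by 4.82 ± 0.10, or 28.3-fold lower, with a limma adjusted p of 1.28e-10. Scgb2a1 fell by 2.60 ± 0.15, or 6.05-fold lower, with a limma adjusted p of 5.14e-07. The slide values of Scgb1d4 were -5.51, -5.83 and -6.04. With the slide as a block, Scgb1a1 also passed as lower (-0.31, limma adjusted p 0.0299 against 0.373 without the block) and Scgb3a1 as higher (0.53, limma adjusted p 0.0011 against 0.101), so 5 of 7 probes were called in place of 3, where 23.5% of all kept probes were called in the fit with the block.

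The drug groups were compared with each other, obstruction/Eviprostat against sham/Eviprostat. The 3 subunit probes were lower in obstruction/Eviprostat, where 2.28% of kept probes were called and 1.31% were called lower. Scgb1d4 fell by 4.95 ± 0.21 on the log2 scale (31.0-fold lower, limma adjusted p 1.40e-07) and Scgb1d2 by 4.69 ± 0.10 (25.8-fold lower, limma adjusted p 1.77e-10). By size of difference they ranked 4 and 6 among the kept probes. Scgb2a1 fell by 2.13 ± 0.15 (4.38-fold lower, limma adjusted p 7.47e-06). With median centring the Scgb2a1 difference was -2.18 with a limma adjusted p of 0.0653.

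The Eviprostat effect therefore had opposite signs under the 2 operations, and the difference between the 2 effects was itself tested. The effect in obstructed rats minus that in sham rats was -9.02 ± 0.14 (log2, SE) for Scgb1d2, with a limma adjusted p of 4.60e-12. It was -9.34 ± 0.30 for Scgb1d4, with a limma adjusted p of 6.76e-09, and -4.11 ± 0.21 for Scgb2a1, with a limma adjusted p of 2.85e-07. In this test 8.66% of kept probes were called and 4.89% were called lower. The dosing schedules of sham and obstructed rats differed, so this test also compares those schedules. It compares pools of tissue as well, and its p-values leave out the spread between animals.

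**Figure D3:**
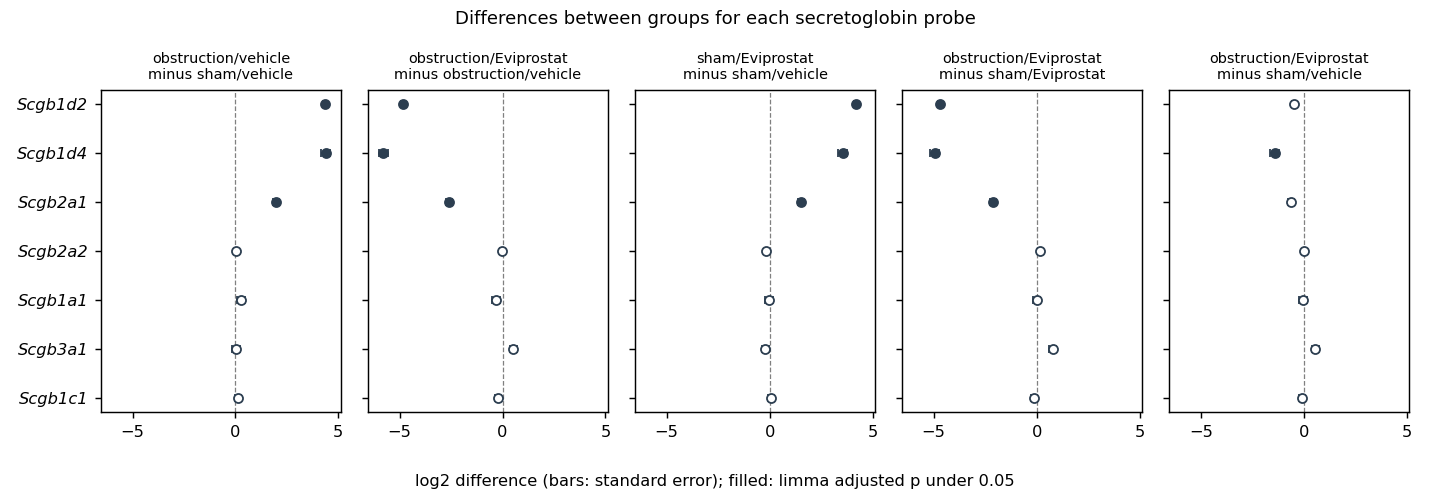
Difference between group means on the log2 scale (x axis) for each secretoglobin probe (y axis) in 5 comparisons; bars are the standard error of the limma fit, and filled points have an adjusted p under 0.05. The 3 subunit probes are called in each of the first 4 comparisons, with opposite signs, and Scgb1d4 alone is called between obstruction/Eviprostat and sham/vehicle.

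Obstruction with Eviprostat was finally set against sham/vehicle, the groups in which subunit signal was low. Only Scgb1d4 of the 7 probes passed the test, where 0.294% of kept probes were called and 0.119% were called lower. It fell by 1.41 ± 0.21 on the log2 scale, or 2.66-fold lower, with a limma adjusted p of 0.016. This call was lost under median centring (difference -1.43) and when either sham/vehicle replicate 2 or 3, or any of the 3 obstruction/Eviprostat arrays, was left out (differences of -1.29 to -1.44). Scgb1d2 differed by -0.49 ± 0.10 (limma adjusted p 0.0756) and Scgb2a1 by -0.61 ± 0.15 (limma adjusted p 0.19). With the slide as a block, where 2.48% of all kept probes were called, 4 of the 7 were called: Scgb1d4 (limma adjusted p 4.20e-05), Scgb1d2 (0.00925) and Scgb2a1 (0.0331) lower and Scgb3a1 (0.00559) higher.

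Scgb2a2 and Scgb2a1 are a pair in which the probes disagreed. The accession list of the Scgb2a1 probe includes the mRNA that the Scgb2a2 probe was designed on, and that mRNA is now assigned to Scgb2a1, with Scgb2a2 as a synonym. The Scgb2a2 probe was nonetheless dim, with Cy5 intensities of 358 to 477, and well above background in Cy5 on 5 of 12 arrays. Its log2 ratios lay between -0.27 and 0.06, with the sham/Eviprostat arrays (-0.27 to -0.19) below the sham/vehicle (-0.15 to -0.02) and obstruction/vehicle (-0.09 to -0.01) arrays. It was not called in any comparison, and its difference between obstruction/vehicle and sham/vehicle was 0.04 ± 0.09 (limma adjusted p 0.811).

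Further probes on the prostatein C3 gene sequence were not called in any comparison either. The array lists them under the sequence names M71245 (chr1:212459916-212459975) and V01257 (chr1:212455863-212455922), described as the C3 gene and its first exon. M71245 differed by 0.00 ± 0.14 between obstruction/vehicle and sham/vehicle (limma adjusted p 0.994) and V01257 by -0.11 ± 0.10 (limma adjusted p 0.538). The last 25 bases of the V01257 probe match the first 25 bases of the Scgb2a1 promoter window in GRCr8, so it lies before the RefSeq start. These C3 probes lie 133364 to 137417 bases from the probe named Scgb2a1, the only probe with a C3 name that changed, and which transcript that probe detects was not settled. A probe named Pnsp1, whose accession is now Scgb3a2, was likewise dim, with Cy5 intensities of 366 to 540 and a difference of -0.07 ± 0.08 (limma adjusted p 0.69).

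The secretoglobins known from other epithelia did not follow the subunits. Scgb1a1 had log2 ratios of 0.27, -0.03 and 0.04 in sham/vehicle, 0.46, -0.20 and -0.11 in sham/Eviprostat, 0.61, 0.07 and 0.36 in obstruction/vehicle, and 0.26, -0.05 and -0.08 in obstruction/Eviprostat. All 4 groups overlapped, and slide 1 gave the highest value in each. Obstruction/vehicle exceeded sham/vehicle by 0.26 ± 0.18 (limma adjusted p 0.456), with 0.34, 0.11 and 0.32 on the 3 slides. Its Cy5 intensities were 451 to 937, well above background on all 12 arrays.

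Scgb3a1 had its highest values in obstruction/Eviprostat, at 0.89, 0.45 and 0.41. The sham/vehicle arrays gave 0.14, -0.03 and -0.06, the sham/Eviprostat arrays 0.22, -0.34 and -0.45, and the obstruction/vehicle arrays 0.31, -0.05 and -0.11. The obstruction/Eviprostat arrays lay above all others. The difference from sham/Eviprostat was 0.77 ± 0.18 (limma adjusted p 0.0543), and 0.667, 0.786 and 0.854 within the slides. With the slide as a block the limma adjusted p was 0.000205, and for the interaction it was 0.00146 against 0.114 without it. Scgb1c1 kept to log2 ratios between -0.29 and 0.35, with overlapping groups, and was not called in any comparison.

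The genes most like each member were found by Pearson correlation of the log2 ratio over the 12 arrays, among 1123 named probes outside the family whose group means spanned at least 1 log2. The arrays fall into a high and a low set for the subunits, so r mostly measures that split. For Scgb1d2 the 5 nearest were Wfdc21 (a whey acidic protein family member, r = 0.991), Svs3a (a seminal vesicle secretory protein, 0.990), Serpina5 (protein C inhibitor, a serpin of seminal plasma, 0.988), Sbp (spermine binding protein of the ventral prostate, 0.987) and Klk1c2 (a kallikrein-family protease, 0.985). For Scgb1d4 they were Sbp (0.994), Qsox1 (a sulfhydryl oxidase that forms disulfide bonds, 0.983), Svs3b (0.971), Serpina5 (0.967) and Wfdc21 (0.965). Scgb2a1 had the same 5 genes in the same order, from Sbp at 0.987 to Wfdc21 at 0.960. Sbp had group means of 0.10, 2.75, 2.87 and -0.95 in sham/vehicle, sham/Eviprostat, obstruction/vehicle and obstruction/Eviprostat. Like Scgb1d4, its lowest group was obstruction/Eviprostat.

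Scgb1a1 had less similar neighbours, which were Rhog (a small GTPase, r = 0.891), Tpm1 (tropomyosin, 0.884), Pgam1 (a glycolytic enzyme, 0.882), Ddx52 (an RNA helicase, 0.879) and Ftl1l1 (a ferritin light chain-like gene, 0.875). Their group means were highest in obstruction/vehicle, between 1.21 and 1.46, and no higher than 0.55 in the other groups. Each spanned the required 1 log2 only through obstruction/vehicle, so the filter helped to fix their peak there. Scgb1a1 itself was not called without the slide block, and its group means ran from 0.04 to 0.35.

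**Figure D4:**
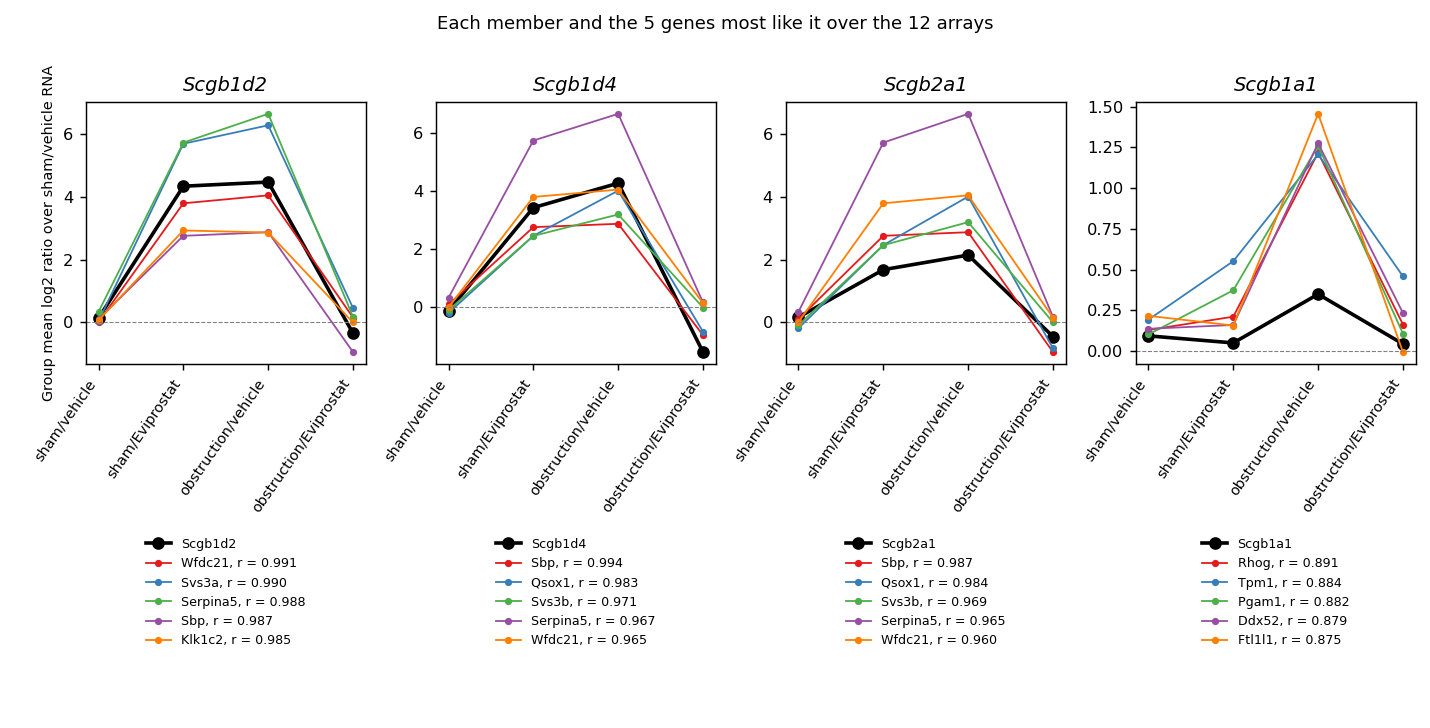
Group mean log2 ratio (y axis) in the 4 groups (x axis) for Scgb1d2, Scgb1d4, Scgb2a1 and Scgb1a1 (black) and the 5 genes most like each by Pearson r over 12 arrays (colours); lines join the groups only to guide the eye. The neighbours of the subunits are high in sham/Eviprostat and obstruction/vehicle. Those of Scgb1a1 are highest in obstruction/vehicle, the group through which they met the required span of group means.

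Other prostate secretory and androgen-regulated genes did not share the subunit pattern as a group. Of 17 measured, 2 rose and 6 fell in obstruction/vehicle relative to sham/vehicle, with a median difference of -0.40. Over all kept probes 11.6% were called in this comparison and 7.15% were called higher. The largest were Sbp at 2.77 ± 0.14, Spink1 (a secreted trypsin inhibitor) at 2.47 ± 0.35 and Msmb (beta-microseminoprotein) at -1.60 ± 0.13, with limma adjusted p of 1.86e-07, 0.000666 and 7.55e-06. In sham/Eviprostat relative to sham/vehicle 1 of the 17 rose, Sbp (2.65 ± 0.14, limma adjusted p 1.56e-06), and none fell. Spink1 differed by 1.55 ± 0.35 (limma adjusted p 0.0535, and 0.0101 with the slide as a block). Msmb differed by -0.36 ± 0.13 (limma adjusted p 0.296). Under Eviprostat in obstructed rats 6 rose and 3 fell, where 9.79% of kept probes were called and 5.89% were called lower.

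Of 11 measured transcription factors and nuclear receptors listed as regulators of secretoglobin promoters, 2 rose and 1 fell in obstruction/vehicle relative to sham/vehicle. Of all kept probes, 11.6% were called in that comparison. Cebpd rose by 3.37 ± 0.11 (limma adjusted p 9.03e-09) and Cebpb by 1.68 ± 0.20 (0.000174), both CCAAT/enhancer-binding proteins. Foxa1, a forkhead factor of prostate epithelium, fell by 0.99 ± 0.14 (limma adjusted p 0.000748). In sham/Eviprostat relative to sham/vehicle, Cebpd differed by 0.10 ± 0.11 (limma adjusted p 0.898), Cebpb by 0.03 ± 0.20 (0.993) and Foxa1 by -0.23 ± 0.14 (0.694). The part of these regulators in the subunit result was not tested.

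Among 4 measured genes listed as binding partners or targets of secretoglobins, 2 rose in obstruction/vehicle, Fn1 (fibronectin, 2.57 ± 0.23, limma adjusted p 1.36e-05) and Pla2g2a (secretory phospholipase A2, 1.46 ± 0.23, limma adjusted p 0.00132). Lmbr1l, a lipocalin receptor, differed by -0.11 ± 0.12 (limma adjusted p 0.666). Of 8 airway club cell and lung markers only Cyp4b1 passed (0.82 ± 0.23, limma adjusted p 0.0373). This share is near that over all kept probes, of which 11.6% were called in obstruction/vehicle against sham/vehicle.

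Markers of another gland moved with the subunits. Of 8 measured seminal vesicle genes, 7 rose and none fell in obstruction/vehicle relative to sham/vehicle, and 7 rose and none fell in sham/Eviprostat relative to sham/vehicle. In obstruction/Eviprostat, 7 fell relative to obstruction/vehicle and 7 relative to sham/Eviprostat. Over all kept probes these comparisons called 11.6%, 1.53%, 9.79% and 2.28%, in the order given here. The largest in obstruction/vehicle were Svs5 at 7.77 ± 0.35, Svs6 at 6.78 ± 0.31 and Svs3a at 6.24 ± 0.13, with limma adjusted p of 6.62e-08, 6.62e-08 and 1.51e-10. These 3 were well above background on all 12 arrays, but Svs5 and Svs6 were saturated on 2 of 3 obstruction/vehicle arrays, so their order by size is not settled. Their part in the subunit result was not tested.

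The summed Cy5 intensity of these 8 genes was 187676 to 859181 in sham/vehicle, 839073 to 2107030 in sham/Eviprostat, 1540970 to 3014810 in obstruction/vehicle and 243114 to 854334 in obstruction/Eviprostat. Up to 3 of the genes were saturated on an obstruction/vehicle array, and up to 1 on a sham/vehicle or sham/Eviprostat array, which holds those sums down. On each array 6 to 8 of the 8 were well above background. Svs7 was above it on 0 of 3 sham/vehicle arrays and 2 of 3 obstruction/Eviprostat arrays. Svs1 was above it on 2 of 3 sham/vehicle arrays. The sums of sham/Eviprostat and sham/vehicle overlapped over the 3 slides, as slide 1 was dimmer.

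Other tissues of the region differed between the groups in other ways. Of 5 measured urothelial genes, 3 rose in obstruction/vehicle, with Upk3a at 3.30 ± 0.19 (limma adjusted p 5.59e-07), Krt7 at 2.96 ± 0.21 (2.52e-06) and Upk1b at 2.88 ± 0.28 (2.85e-05). In sham/Eviprostat Upk3a differed by 0.35 ± 0.19 (limma adjusted p 0.624) and Krt7 by 0.80 ± 0.21 (0.102; 0.000375 with the slide as a block). Of 7 skeletal muscle genes, 5 fell in obstruction/vehicle and 5 rose in sham/Eviprostat, so they did not share the subunit pattern. Of 11 epithelial and stromal genes of the prostate, 5 rose and 1 fell in obstruction/vehicle, and 1 rose in sham/Eviprostat. Against sham/vehicle, 11.6% of all kept probes were called in obstruction/vehicle and 1.53% in sham/Eviprostat. Summed Cy5 of the urothelial genes was 2594 to 4774 in sham/vehicle and 23773 to 70547 in obstruction/vehicle. That of the skeletal muscle genes was 31682 to 103057 in sham/vehicle and 85681 to 313323 in sham/Eviprostat. The part of these tissues in the subunit result was not tested.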

How the data were processed

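Per the file headers, the authors used Agilent Feature Extraction 9.5.1.1, and they deposited its intensity values for spots and local backgrounds in Cy5 and Cy3. The log10 ratio of red over green, also deposited, equals the series' value table with a largest difference of 0. Per the labels, 1500 ng of sham/vehicle RNA and 300 ng of each other RNA were labelled, with sham/vehicle RNA in Cy3 and no dye swap. The number of arrays limits the precision.

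Backgrounds were corrected with normexp (offset 50) and log2 ratios were loess-normalized within each array (limma 3.58.1, R 4.3.3). Control spots and outlier-marked spots had no weight, and marked spots were left out. Spots of a probe were averaged. Of 41012 probes, 36105 with Cy5 well above background on at least 3 of 12 arrays were kept. The 12 arrays were fitted together with 4 group means, and p-values were moderated by eBayes and adjusted by Benjamini-Hochberg over all kept probes, with a threshold of 0.05. The script was tested on simulated data.

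Replicate and slide numbers coincide in the file headers. Deviations from the group means of arrays on the same slide correlated at 0.155 to 0.779 in 18 pairs. Arrays on different slides correlated at -0.702 to 0.558 in 36 pairs, 12 of them above 0, so the ranges overlap. Every same-slide correlation was above 0.1. Slide 1 was scanned on day 1 and slides 2 and 3 on day 2. The correlations therefore do not tell pairing by slide from a difference between scan days. The numbers were still taken to pair the arrays, and a fit with the slide as a block was the alternative. Other alternatives changed the log ratio, centring, offset, channel, filter, marked and saturated spots, and arrays used.

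Every probe with an array name starting with Scgb is reported, with Scgb1d4 found by accession, and each listed gene is read by its brightest kept probe. Up to 3 genes of a list, those with the largest difference in obstruction/vehicle, are named with their differences. None is named from the skeletal muscle list or the epithelial and stromal list. The members, lists and comparisons were chosen with earlier results of these data known. RefSeq names and promoters are of GRCr8; 10788 probes were named by accession, 5571 by current symbol, 3718 by synonym and 156 by array symbol, and 20779 have no gene name here. Shared runs and alignments were computed in Python with Biopython.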

Additional observations from a re-analysis of the deposited data

Results flagged for a closer look

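The effect of Eviprostat differed between obstructed and sham-operated rats for the 3 prostatein subunit probes, which was tested as an interaction in limma over 12 arrays. The effect in obstructed rats minus that in sham rats was -9.02 ± 0.14 (log2, SE) for Scgb1d2, -9.34 ± 0.30 for Scgb1d4 and -4.11 ± 0.21 for Scgb2a1. Under Eviprostat the signal was higher in all 3 slide pairs of sham rats and lower in all 3 of obstructed rats for each of these probes. The tissue of a group was pooled, so the slide pairs leave out the spread between animals. The dosing schedules of sham and obstructed rats also differed.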

How the results depend on the processing

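Over the alternatives, 743 values of single probes were recomputed. Of these, 706 kept their call or lack of one, 8 lost the call, 29 gained one and 0 calls reversed. Values without a call could change sign. Scgb3a1 in obstruction/vehicle minus sham/vehicle, for example, ran from -0.25 to 0.12. Scgb1d2 and Scgb1d4 kept their calls in the 4 comparisons of the high with the low groups under each alternative run, with differences of 4.23 to 4.57 and 4.17 to 4.56 for obstruction/vehicle minus sham/vehicle. Median centring ended the Scgb2a1 calls of sham/Eviprostat against sham/vehicle and of obstruction/Eviprostat against sham/Eviprostat; the cause was not tested.

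Of the 7 probes, those called between obstruction/Eviprostat and obstruction/vehicle numbered 5 with the slide as a replicate block and 5 with the scanner software's log ratio, against 3. Over all kept probes these settings called 8494 and 13523, against 3536. Between obstruction/Eviprostat and sham/vehicle, where 1 was called, they numbered 4 with the block, 4 with the scanner log ratio and 0 with median centring. Over all kept probes these settings called 897, 1924 and 10, against 106. The 7 probes had 3 calls on slides 2 and 3 only, 2 with the Cy5 level alone and 2 with only the arrays compared. With each array left out in turn they had 0 to 1. Calls over all kept probes are not given here for these last settings, so their counts have no background to be set against. Apart from the calls given with the results, the block changed no other call of the 7 probes.

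Calls over all kept probes depended more on the setting, the fewest coming from median centring and the most from the scanner log ratio. They ran from 1788 to 14481 for obstruction/vehicle against sham/vehicle (4191 with loess), 1329 to 13523 for obstruction/Eviprostat against obstruction/vehicle (3536), 64 to 3419 for sham/Eviprostat against sham/vehicle (552), 140 to 4279 for obstruction/Eviprostat against sham/Eviprostat (823), 10 to 1924 for obstruction/Eviprostat against sham/vehicle (106) and 1017 to 11713 for the interaction (3127). The share of calls that were higher moved too, for obstruction/vehicle against sham/vehicle from 61.6% to 90.2% with median centring and 40.9% with the scanner log ratio. For obstruction/Eviprostat against obstruction/vehicle it moved from 39.8% to 9.93% and 57.8%, and for the interaction from 43.6% to 10.5% and 55.8%. With median centring it moved from 56.9% to 96.9% for sham/Eviprostat against sham/vehicle, from 42.5% to 23.6% for obstruction/Eviprostat against sham/Eviprostat, and from 59.4% to 100% for obstruction/Eviprostat against sham/vehicle. Requiring Cy5 above background on all 12 arrays left Scgb2a2 without a value, as its signal lay near background.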
